A study of Drosophila melanogaster with 24 samples.

Results

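The comparison described here sets 8 libraries of Drosophila melanogaster homozygous for rn[tot] against 8 libraries heterozygous for it, with developmental stage as a covariate, and asks which genes carried one genotype effect over all 4 stages. The libraries were chosen by genotype from the 24 libraries of the study, and the other 8 were wild type. The mutants were w[1118];;rn[tot]/rn[tot], the heterozygotes were w[1118];;rn[tot]/TM6 and the wild type was w[1118];;+/+, so all 3 shared the w[1118] background. Polyadenylated RNA was sequenced from the imaginal disc of wandering larvae, from antennae dissected 8 h or 40 h after pupation, and from adult antennae, with n = 2 libraries for each genotype at each stage. The labels do not say whether a pair of libraries came from separate animals, so p-values here measure only the spread between these libraries, which may be technical.

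The product of rotund (rn) is a transcription factor with zinc fingers that acts in the patterning of the appendages and in the diversification of olfactory sensory neurons in the antenna. Each of those neurons expresses 1 or a few chemosensory receptors, and the neurons are grouped into basiconic, trichoid, intermediate and coeloconic sensilla according to the receptors and the hair that houses them. TM6 is a balancer, a rearranged chromosome 3 that carries visible markers and suppresses recombination, and rn itself lies on the right arm of chromosome 3. A heterozygote therefore had 1 copy of the chromosome 3 that bears rn[tot] and 1 copy of TM6, and a mutant had 2 copies of the former. The rn genotype and the rest of chromosome 3 cannot be told apart in this comparison.

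Genes were counted by their most abundant transcript, and 10723 genes passed the filter on low counts. Over the 16 libraries the gene counts ran from 9552980 to 15123603 per library, and the 3 leading principal components held 58.5%, 23.3% and 12.2% of the variance. Levels are CPM, counts relative to the library's total, scaled over all 24 libraries, so that the wild type stands on the same scale, although it did not enter the fit. Changes are log2 of mutant over heterozygote ± SE from edgeR's quasi-likelihood fit with stage as an additive term, and adjusted p-values are Benjamini-Hochberg values over the 10723 genes, two-sided, with a threshold of 0.05. Coordinates are those of the BDGP6 assembly in the Ensembl annotation. Replicates of the heterozygote differed more from each other than those of the mutant at 3 of the 4 stages, and heterozygote larval library 1 held 3.05% mitochondrial counts against 1.51% in library 2. The replicates farthest apart in the whole study were those of the wild type at 8 h, with a log2 correlation of 0.8845. Wild type values at that stage, and its means over stages, are the less certain for it.

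A shared genotype effect was found for 35 genes, 0.326% of those tested. Of these, 16 were higher in the mutant (0.149%) and 19 were lower (0.177%). The changes covered a wide range of sizes: 10 genes changed by an absolute log2 value of 4 or more, all of them lower in the mutant, and 14 changed by less than 1. At an unadjusted p under 0.05 there were 822 genes (7.67%), of which 298 were higher (2.78%) and 524 lower (4.89%). The median log2 change over all tested genes was -0.02. The number of calls depended on single libraries: it was 77 without heterozygote larval library 1, 20 and 21 without heterozygote adult libraries 1 and 2, and 23 and 16 without mutant adult libraries 1 and 2. Of the 35 genes, 15 kept the call whichever single library was left out, namely Map205, GstZ1, PolQ, RhoGAP68F, CG8319, CG4362, frtz, Or67c, Or98a, CG5697, CG34138, Calx, pst, CG14715 and mura.

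The 35 genes were selected for an effect common to the stages, so agreement between stages is described here and supports nothing further. The change had the same sign at all 4 stages in 30 of the 35 genes (85.7%), against 1700 of all tested genes (15.9%), and some of these signs rest on a few counts. The 2 mutant and the 2 heterozygote libraries did not overlap at any of the 4 stages in 22 of the 35 (11 higher, 11 lower), against 79 of all 10723 genes (0.737%), of which 37 were higher (0.345%) and 42 lower (0.392%). When each stage was tested by itself, 18 of the 35 genes passed at no single stage, 9 passed at 1 stage, 5 at 2, 2 at 3, and Map205 at all 4. The numbers of genes passing within a stage, over all tested genes, were 22 in the larva (0.205%), 10 at 8 h (0.0933%), 8 at 40 h (0.0746%) and 33 in the adult (0.308%). Of the 35 genes, 7, 6, 4 and 12 passed at these stages in the same order.

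**Figure D1:**
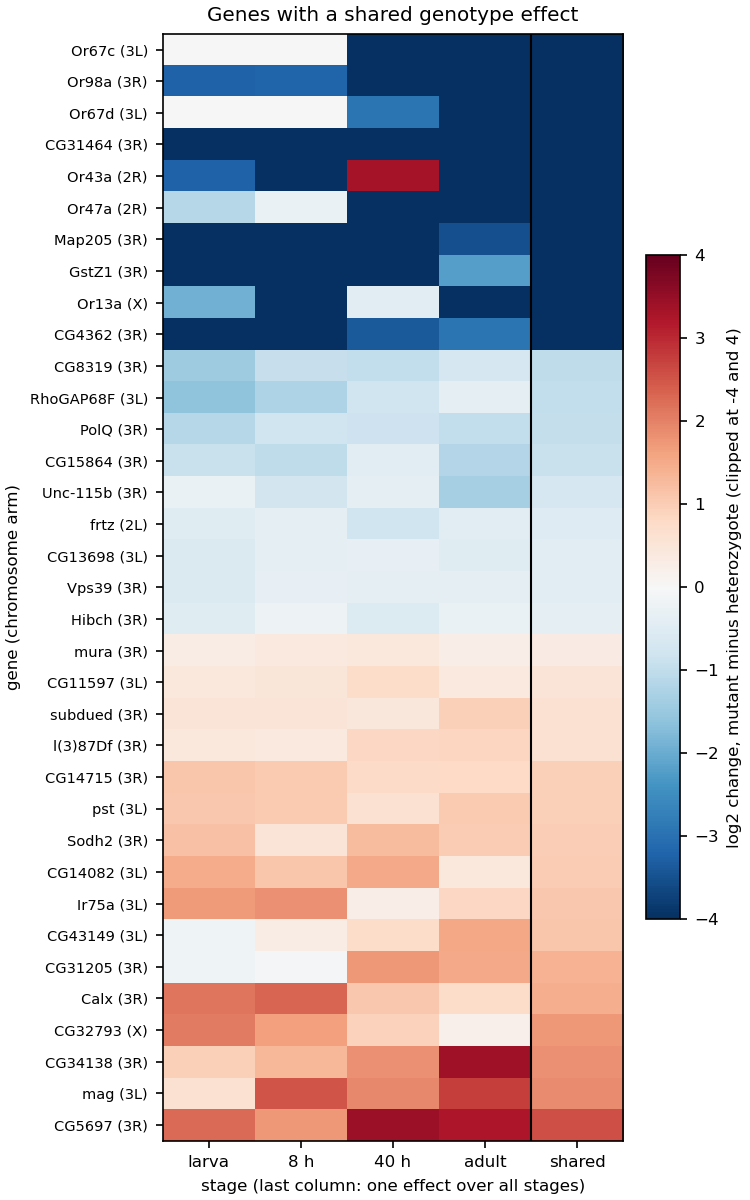
The log2 change of mutant minus heterozygote (colour, clipped at -4 and 4) of each of the 35 genes with a shared effect (rows, with chromosome arm) at each of the 4 stages and as one shared effect (columns). The row colours keep one sign across the stages in 30 of the 35 genes, and all 6 odorant receptors are lower in the adult. Receptor values at the earlier stages rest on counts at or near 0, except Or67c at 40 h with 154 heterozygous counts.

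The rn mRNA itself did not separate the genotypes by a shared effect. rn (FBgn0267337, 3R:7272617-7309629, minus strand) had 48.0 and 51.1 CPM in heterozygous and 74.7 and 68.7 CPM in mutant larval libraries. At 8 h it had 73.9 and 82.2 CPM in heterozygotes and 48.8 and 44.6 CPM in mutants. At 40 h and in the adult all 8 of these libraries lay between 1.23 and 4.98 CPM. The mutant libraries were thus the higher pair in the larva and the lower pair at the 3 later stages, without overlap at any stage in the transcript counted for the gene, and the shared change was -0.29 ± 0.20 (adjusted p = 0.805). The 4 annotated rn transcripts share the same end of the gene. In the larva FBtr0299637, the shortest in genomic extent, had 42.2 and 35.7 CPM in heterozygous and 52.4 and 46.7 CPM in mutant libraries, while in the adult its libraries overlapped, as did those of FBtr0299639 at 40 h. Since rn mRNA was present in both genotypes, its level does not check the labels of single libraries.

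Odorant receptors were among the genes with the largest reductions. Of the 19 lower genes, 6 were odorant receptors, and in the adult antenna their mutant libraries held between 0 and 1.42 CPM while the heterozygous libraries held between 23.5 and 68.5 CPM. In antennal tissue as a whole, fewer neurons of a class and less receptor RNA per neuron cannot be told apart. Or67c and Or98a, receptors of the small basiconic class, were at 40.8 and 51.5 CPM and at 68.5 and 59.5 CPM in adult heterozygotes. In adult mutants Or67c was at 0 and 0.157 CPM, and Or98a at 0.307 and 0.315 CPM. The wild type libraries held 28.1 and 29.0 CPM of Or67c and 27.6 and 41.1 CPM of Or98a. Both genes were therefore lower in the 2 mutant libraries than in any of the 4 others.

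The fitted changes of such low values depend on the prior, so ratios of counts are given as well, with exact intervals that cover counting error only and are too narrow where both mates of a read pair were counted. For Or67c the shared change was -8.79 ± 0.49 (adjusted p = 3.88e-05). Its 1404 adult heterozygous counts against 2 mutant counts gave a ratio of 597 (165 to 4940) after scaling, and at 40 h, where the mutant libraries had none of its counts, it was at least 53.3-fold lower against a floor of 3 counts over the group. Or98a changed by -7.48 ± 0.41 (adjusted p = 9.02e-08), with an adult ratio of 205 (104 to 476) from 1930 and 8 counts. Or98a lies within CG34353, a gene on the opposite strand whose adult levels were 38.1 and 37.6 CPM in heterozygotes and 38.7 and 36.7 CPM in mutants.

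Or67d, the receptor of the pheromone cis-vaccenyl acetate in trichoid sensilla, stood at 44.2 and 51.0 CPM in adult heterozygotes and at 0.153 and 0.157 CPM in adult mutants. Its shared change was -7.21 ± 0.75 (adjusted p = 0.00343), and the adult ratio was 307 (120 to 1130) from 1444 and 4 counts. Or43a, of the trichoid and intermediate class, fell from 25.4 and 23.5 CPM to 0.307 and 0.157 CPM in the adult (shared change -5.73 ± 0.94, adjusted p = 0.0111). Both are among the genes whose sign was not the same at every stage, because their values before the adult stage were below 1.1 CPM in both genotypes. The call of Or67d was lost without mutant adult library 2 (adjusted p = 0.0613), and that of Or43a without any one of the 4 adult libraries (adjusted p up to 0.174). With DESeq2, Or67c, Or67d and Or43a did not pass (adjusted p = 0.675, 0.676 and 0.685, with log2 changes of -4.47, -2.60 and -2.86). For the mean of the 4 within-stage contrasts, which weighs the stages equally, Or67c, Or98a, Or67d and Or43a did not pass (-4.63, -4.59, -2.77 and -2.67, adjusted p = 1.0, 0.0822, 1.0 and 1.0). Without the adult stage Or67c did not pass (-7.60, adjusted p = 0.198) and the other 5 receptors were below the filter on low counts.

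Or47a and Or13a, again of the small basiconic class, were the remaining pair. In adult heterozygotes Or47a was at 59.3 and 59.5 CPM and Or13a at 52.8 and 54.2 CPM. In adult mutants Or47a was at 0.383 and 0.157 CPM and Or13a at 1.38 and 1.42 CPM, so Or13a alone of the 6 kept a level above 1 CPM. Their shared changes were -5.47 ± 0.90 (adjusted p = 0.0111) and -4.39 ± 0.57 (adjusted p = 0.00154). Counts of Or47a were also found in the wild type larval disc, at 7.38 and 6.59 CPM. Larval heterozygotes had 0.896 and 0.713 CPM and larval mutants 0.222 and 0.508 CPM. Or47a overlaps Cpr47Ea on the opposite strand, and the strand setting of the count is not given. Reads of the pair may therefore be mixed. The Or47a call was lost without any one of the 4 adult libraries (adjusted p up to 0.114), and that of Or13a without mutant adult library 2 (adjusted p = 0.0509).

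**Figure D2:**
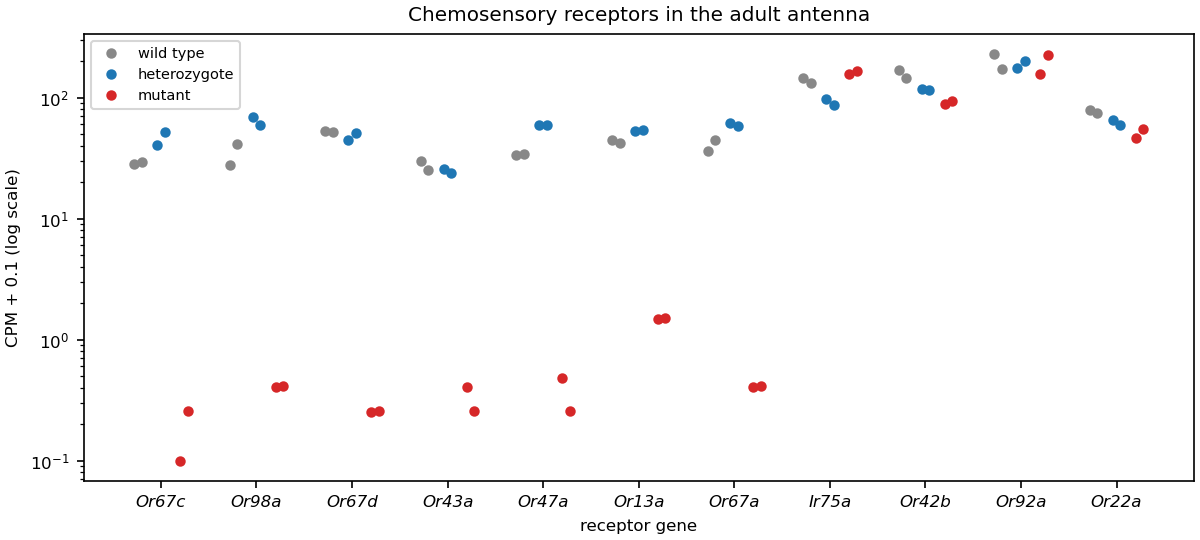
Adult antennal level (CPM + 0.1, log axis) of 11 chemosensory receptor genes in each library (points), 2 per genotype. The 6 odorant receptors with a shared effect and Or67a stand at or below 1.42 CPM in both mutant libraries, while Ir75a is higher in mutants than in heterozygotes and Or42b, Or92a and Or22a, receptors of large basiconic sensilla, stay above 46 CPM in every library.

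Not every receptor class moved in this way. Of the 15 tested receptors from small basiconic sensilla (ab4 to ab10), 4 passed as lower (Or67c, Or98a, Or47a and Or13a) and none as higher, against 0.177% lower over all genes. At an unadjusted p under 0.05, 8 of the 15 were lower, against 4.89% of all genes, and their median log2 change was -0.37. Of the 12 trichoid and intermediate receptors, 2 passed as lower (Or67d and Or43a), 4 were lower at an unadjusted p under 0.05, and the median was 0.08. None of the 10 tested receptors from large basiconic sensilla (ab1 to ab3) passed in either direction (0 at an unadjusted p under 0.05), and their median was -0.06. Or19a and Or19b, near-identical copies whose reads may be shared, had -5.15 ± 1.28 and -5.51 ± 1.22 (adjusted p = 0.182 and 0.111). The 5 receptors of the arista and sacculus had no call either and a median of -0.04. The coreceptor Orco, needed by the odorant receptors for their transport to the cilium, had 2250 and 2080 CPM in adult heterozygotes and 1510 and 1840 CPM in adult mutants (shared change -0.51 ± 0.13, adjusted p = 0.181).

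Ir75a, an ionotropic receptor of coeloconic sensilla that responds to acetic acid in D. melanogaster, was higher in the mutant. Adult heterozygotes had 96.8 and 86.4 CPM, adult mutants 156 and 167 CPM, and adult wild type 145 and 132 CPM. At 8 h the values were 2.04 and 1.79 CPM in heterozygotes and 7.11 and 6.52 CPM in mutants. The shared change was 1.08 ± 0.20 (adjusted p = 0.0277). It was the only one of 12 tested coeloconic receptors to pass, and the median of those 12 was -0.07. At an unadjusted p under 0.05, 2 of the 12 were higher and 3 lower, against 2.78% and 4.89% of all genes. The 3 lower ones were Ir92a (-3.19 ± 0.81), Ir31a (-0.89 ± 0.22) and Ir75d (-0.52 ± 0.15). Ir75b and Ir75c, neighbours and relatives of Ir75a, had 52.2 and 45.5 CPM and 32.1 and 25.6 CPM in adult heterozygotes. In adult mutants they had 61.3 and 65.8 CPM and 31.9 and 33.5 CPM. The call of Ir75a was lost without any one of 9 of the 16 libraries (adjusted p up to 0.109).

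Outside the receptors, Map205 was lower in the mutant by a large factor at every stage and passed at each of them. Map205 (FBgn0002645, 3R:32055279-32068441, minus strand) encodes a microtubule-associated protein that binds the mitotic kinase Polo. Heterozygous libraries had 430 and 236 CPM in the larva, 235 and 226 at 8 h, 224 and 259 at 40 h, and 34.7 and 34.7 in the adult. Mutant libraries had 4.23 and 8.21, 4.64 and 5.47, 10.2 and 16.4, and 3.07 and 2.99 CPM at the same stages. Mutants never reached the lowest heterozygote of their stage, and the shared change was -4.78 ± 0.30 (adjusted p = 3.83e-07). The wild type lay above the heterozygote at every stage, as in the larva with 492 and 454 CPM or in the adult with 77.6 and 76.3 CPM. All 3 annotated Map205 transcripts were lower, with log2 changes of -4.71, -5.17 and -5.11.

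GstZ1 (FBgn0037696, 3R:9455517-9456546, minus strand), a glutathione S-transferase of the zeta class, was near 0 in the mutant before the adult stage. Heterozygotes had 27.1 and 13.4 CPM in the larva, 13.4 and 6.66 at 8 h, 6.28 and 9.29 at 40 h, and 5.14 and 4.16 in the adult. Mutants had 0.445 and 0.169 CPM, then 0 and 0, then 0.579 and 0, and 0.92 and 1.10 CPM. The shared change was -4.53 ± 0.58 (adjusted p = 0.00139), and at 8 h the mutant was at least 61.1-fold lower against the floor of 3 counts over the group. Wild type libraries ranged from 7.27 to 24.9 CPM. GstZ2, the other zeta-class gene, had 18.1 and 14.2 CPM in larval heterozygotes and 15.3 and 17.9 CPM in larval mutants, and 43.3 and 25 against 35.6 and 41.0 CPM in the adult. GstZ1 was the only call among 50 tested detoxification genes, against 0.177% lower over all genes. At an unadjusted p under 0.05, 12 of the 50 were lower, against 4.89% of all genes. The median of the 50 was -0.12, with 35 below 0, against a median of -0.02 over all tested genes.

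A further pair of genes was detected almost only in heterozygotes. CG31464 (3R:8291240-8292034) had 5.28 and 4.67 CPM in adult heterozygotes and no count in any of the 8 mutant libraries, which made it at least 54.8-fold lower over all stages. CG4362 (3R:20306216-20307537) had 3.23 and 9.99 CPM in larval heterozygotes and 0.148 and 0.338 CPM in larval mutants. The wild type was also low in both, with at most 0.273 CPM of CG31464 and 0.741 CPM of CG4362. Their shared changes were -7.18 ± 1.03 and -4.07 ± 0.63 (adjusted p = 0.0357 and 0.00642). The call of CG31464 was lost without any one of 9 libraries (adjusted p up to 0.124). Both are named to account for every called gene and fell below the level set for naming, 5 CPM on average in the higher genotype.

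**Figure D3:**
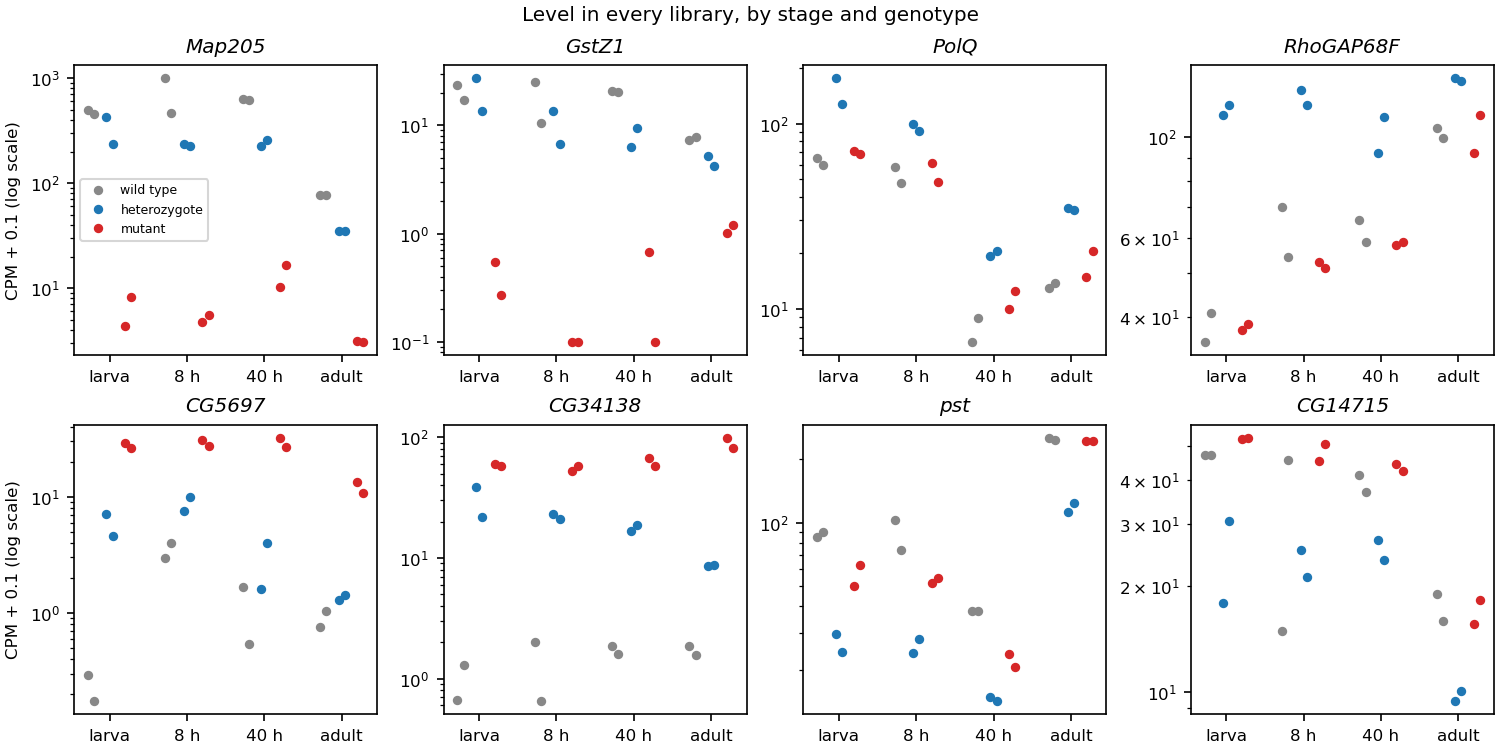
Level (CPM + 0.1, log axis) in each of the 24 libraries (points) by stage and genotype for 4 genes that were lower in the mutant (upper panels) and 4 that were higher (lower panels). Mutant and heterozygous libraries do not overlap at any stage in these 8 genes. On the mean over stages, the wild type lies on the mutant side for PolQ, RhoGAP68F, pst and CG14715 and on the heterozygous side for Map205 and GstZ1. It lies below both for CG5697 and CG34138. Single libraries depart from this: for CG14715 at 8 h, wild type library 1 (14.8 CPM) is below both heterozygotes. For CG5697 at 40 h, wild type library 1 (1.56 CPM) is above heterozygote library 1 (1.52 CPM).

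A second set of lower genes changed about 2-fold or less and had a wild type close to the mutant. PolQ (FBgn0002905, 3R:12705523-12712299), the DNA polymerase theta of end-joining repair, had 175 and 128 CPM in heterozygous larvae and 70.7 and 68.2 in mutant larvae, with 65.0 and 59.5 CPM in wild type. In the adult the pairs were 34.8 and 34.1, 14.7 and 20.4, and 12.9 and 13.7 CPM in the same order. Its shared change was -0.94 ± 0.10 (adjusted p = 0.00011). RhoGAP68F (FBgn0036257, 3L:12138868-12143380), a GTPase-activating protein, had 112 and 118 CPM in heterozygous larvae, 37.4 and 38.6 in mutant larvae and 35.2 and 40.8 in wild type larvae. Its difference narrowed with stage, from -1.60 ± 0.13 in the larva to -1.24 ± 0.13 at 8 h, -0.81 ± 0.13 at 40 h and -0.40 ± 0.13 in the adult. The shared change was -1.0 ± 0.13 (adjusted p = 0.00154), and the test of a difference between stages did not pass (adjusted p = 0.136).

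CG8319 changed by -1.01 ± 0.16 (adjusted p = 0.011), from a median of 18.3 CPM over the 8 heterozygous libraries (9.58 to 36.6) to 9.36 CPM in mutants (5.04 to 17.4), with 8.28 CPM in wild type (5.38 to 21.9). CG15864 changed by -0.88 ± 0.17 (adjusted p = 0.0371), Vps39, a subunit of the complex that tethers late endosomes and lysosomes, by -0.42 ± 0.07 (adjusted p = 0.0161), and Hibch, named for a hydrolase of valine breakdown, by -0.38 ± 0.07 (adjusted p = 0.0371). In these 3 genes too the libraries of the 2 genotypes were apart at every stage. CG13698 changed by -0.44 ± 0.08 (adjusted p = 0.0295) and Unc-115b, an actin-binding protein, by -0.66 ± 0.13 (adjusted p = 0.0457), and in this pair the wild type was nearer the heterozygote. Unc-115b overlaps p24-2 on its own strand (-0.665) and CG18542 on the other (-0.556). Hibch overlaps Cog2 on the other strand (-0.402). None of these overlapping genes was called, and reads may be mixed between them and the called genes. Leaving out 1 library ended the call of CG15864, CG13698, Hibch and Unc-115b in 12, 11, 12 and 14 of 16 cases, with adjusted p up to 0.109, 0.095, 0.121 and 0.132. For Vps39 it did so without mutant library 1 at 8 h, heterozygote adult library 1 or mutant adult library 1 (adjusted p up to 0.0526).

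frtz (FBgn0086698, 2L:1711302-1715851), a component of planar cell polarity, was the only called gene on chromosome 2L. Heterozygotes had 128 and 135 CPM in the larva and 125 and 127 in the adult, mutants 94.2 and 93.7 and then 91.0 and 95.6 CPM, and the shared change was -0.53 ± 0.07 (adjusted p = 0.00288). These levels are of the counted transcript, FBtr0077911, for which the 8 wild type libraries ran from 17.5 to 63.3 CPM, below all 16 others. FBtr0333545 was alike, with a log2 change of -0.55 on the mean of stages. The shorter FBtr0333544 changed by only -0.09. Its means lay closer together: mutant 33.9, heterozygote 36.2 and wild type 27.5 CPM. The difference was thus not seen to the same extent in every form, and which part of frtz carries it was not tested. The gene overlaps mRpL48 on the opposite strand and an annotated mdg3 transposable element on its own strand.

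Among the higher genes, CG5697 had the largest shared change. CG5697 (FBgn0038846, 3R:21015949-21017120) had 6.99 and 4.46 CPM in heterozygous and 28.8 and 26 CPM in mutant larvae. At 40 h the values were 1.52 and 3.90 against 32.2 and 26.6 CPM, and in the adult 1.18 and 1.32 against 13.3 and 10.6 CPM. The lowest mutant library, at 10.6 CPM, was above the highest heterozygous one, at 9.91 CPM, whatever the stage. The shared change was 2.58 ± 0.24 (adjusted p = 3.88e-05), and the wild type ranged from 0.0741 to 3.86 CPM.

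CG34138 (FBgn0083974, 3R:19634949-19635879) was at 38.7 and 21.9 CPM in heterozygous and 59.8 and 58.0 CPM in mutant larvae. In the adult it was at 8.40 and 8.70 CPM in heterozygotes and at 99.3 and 81.0 CPM in mutants. The wild type stayed between 0.551 and 1.91 CPM in all 8 libraries, so the 3 genotypes were ordered wild type, heterozygote, mutant without overlap. Its shared change was 1.84 ± 0.27 (adjusted p = 0.00358), rising from 0.96 ± 0.22 in the larva to 3.39 ± 0.24 in the adult, and the difference between stages passed its test (adjusted p = 0.0432). The gene lies inside subdued, a chloride channel gene of the anoctamin family, on the other strand. Since the strand setting of the count is not given in the sources used here, reads of the pair may be mixed. subdued changed by 0.61 ± 0.11 (adjusted p = 0.0235), and its call was lost without any one of 5 libraries (adjusted p up to 0.0836).

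Calx (FBgn0013995, 3R:20978183-21015613), a sodium-calcium exchanger, is the immediate upstream neighbour of CG5697, 336 bases away on the same strand. In larval libraries it was at 3.32 and 2.23 CPM in heterozygotes and at 13.6 and 10.8 CPM in mutants. In adult libraries the heterozygotes had 50.2 and 49.3 CPM, the mutants 78.0 and 87.4 CPM and the wild type 82.5 and 86.5 CPM. The shared change was 1.45 ± 0.20 (adjusted p = 0.00277). It held only for part of the gene's transcripts. Of 9 annotated transcripts, the 3 that run to the last annotated position (21015613) had log2 changes of 1.54 to 1.69 on the mean of stages, while the 6 that end at least 499 bases earlier had -0.48 to 0.20.

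In the larva and at 8 h the shorter Calx transcripts were near 0 in both genotypes, so their change could be measured at 40 h and in the adult only. The larval means of FBtr0309205, one of the 3 long forms, were 2.64 CPM in heterozygotes and 11.9 CPM in mutants. FBtr0083998, which ends at 21015114, was at 0.0892 and 0.116 CPM. In the adult FBtr0083998 was at 42.8 CPM in heterozygotes and 38.2 CPM in mutants, and at 66.3 CPM in wild type. Adult FBtr0309205 was at 48.6 CPM in heterozygotes, 82.9 CPM in mutants and 76.7 CPM in wild type. At 40 h FBtr0083998 was at 7.83 and 4.68 CPM and FBtr0309205 at 11.8 and 18.3 CPM in heterozygotes and mutants. The counts that were higher are therefore those assigned to forms with the final 499 bases. Among the 14 called genes with more than 1 transcript at 1 CPM or more, 47 of 51 transcripts moved in the direction of the gene, and the 4 exceptions were all Calx transcripts. The transcript counted for each gene is among the 51 and transcripts share reads, so this agreement in sign was largely fixed beforehand. It also says nothing of size, as with frtz FBtr0333544 at -0.09 against -0.53 for the transcript counted.

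**Figure D4:**
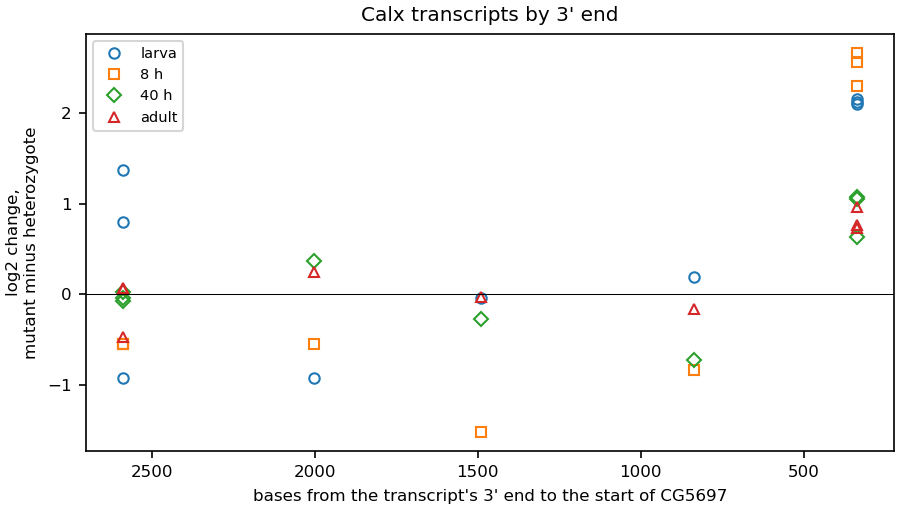
The log2 change of mutant minus heterozygote (vertical axis, from the mean CPM + 0.1 of 2 libraries) of each Calx transcript at each stage, against the distance in bases from its 3′ end to the start of CG5697 (horizontal axis, decreasing to the right). Only the 3 transcripts that end 336 bases from CG5697 are above 0 at all 4 stages; transcripts ending farther away have levels at or below 0.366 CPM in the larva and at 8 h, so their early values scatter.

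pst (pastrel, FBgn0035770, 3L:7357275-7360263), known for its role in resistance to Drosophila C virus, rose by 0.95 ± 0.08 (adjusted p = 3.12e-05). Heterozygous libraries had 29.4 and 24.3 CPM in the larva, 23.8 and 28.0 at 8 h, 14.7 and 14.1 at 40 h, and 112 and 124 in the adult. Mutant libraries had 49.9 and 62.9, 51.7 and 54.7, 23.6 and 20.6, and 245 and 245 CPM. The larval wild type had 85.4 and 89.8 CPM and the adult wild type 253 and 246 CPM, so that it was at or above the mutant and the heterozygote was the lowest genotype.

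CG14715 (3R:11674221-11674923) rose by 0.94 ± 0.11 (adjusted p = 0.000328), from 17.7 and 30.5 CPM to 52.2 and 52.6 CPM in the larva and from 9.30 and 9.96 CPM to 15.5 and 18.1 CPM in the adult. mura, a RING-finger protein, had the smallest change of the 35, 0.34 ± 0.06 (adjusted p = 0.0102), yet its libraries were apart at all 4 stages, as in the adult with 292 and 270 CPM in heterozygotes and 343 and 335 CPM in mutants. Sodh2, a sorbitol dehydrogenase, rose by 0.97 ± 0.17 (adjusted p = 0.0174) from a median of 4.92 CPM to 10.3 CPM. CG14082 rose by 1.02 ± 0.18 (adjusted p = 0.0224) and CG11597 by 0.50 ± 0.08 (adjusted p = 0.0155). The Sodh2 call was lost without heterozygote adult library 1 or 2 or mutant adult library 2 (adjusted p up to 0.0794), the CG11597 call without heterozygote adult library 1 or mutant adult library 2 (adjusted p up to 0.0613), and the CG14082 call without any one of 5 libraries (adjusted p up to 0.0641).

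CG43149 and CG31205 were nearly absent from the wild type. In the adult, CG43149 had 64.9 and 52.2 CPM in heterozygotes and 195 and 150 CPM in mutants, against 0.145 and 0.311 CPM in wild type. Adult CG31205 had 143 and 102 CPM in heterozygotes and 360 and 349 CPM in mutants, against 1.75 and 1.16 CPM in wild type. Both were below 1 CPM in every library of the larva and of 8 h, which is why their signs differed there. Their shared changes were 1.10 ± 0.20 (adjusted p = 0.0272) and 1.40 ± 0.25 (adjusted p = 0.0205). Leaving out any one of 6 and of 5 libraries ended these calls (adjusted p up to 0.148 and 0.116), and CG31205 did not pass with DESeq2 (1.11, adjusted p = 0.0703). For the mean of within-stage contrasts they had 0.61 and 0.75 (adjusted p = 0.777 and 0.585).

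The remaining higher genes were less certain. CG32793, on the X chromosome within kirre, had 5.20 and 12 CPM in heterozygous and 39.5 and 33.5 CPM in mutant larvae and changed by 1.72 ± 0.32 (adjusted p = 0.0272). l(3)87Df changed by 0.62 ± 0.12 (adjusted p = 0.0272). mag, which encodes a lipase, changed by 1.90 ± 0.37 (adjusted p = 0.0371) at levels of at most 2.45 CPM in any library. The calls of CG32793, l(3)87Df and mag were lost without any one of 8, 12 and 13 libraries (adjusted p up to 0.126, 0.103 and 0.145).

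The called genes lay mostly on the chromosome that differed between the genotypes. Of the 35, 30 (85.7%) were on chromosome 3, which held 44.8% of the tested genes. The arm 3R had 20 calls among 2685 genes (0.745%) and 3L had 10 among 2119 (0.472%). The other arms had 2 of 1733 on X (0.115%), 1 of 1884 on 2L (0.0531%), 2 of 2217 on 2R (0.0902%) and 0 of 76 on chromosome 4, where 14 genes (18.4%) had an unadjusted p under 0.05. The 5 genes outside chromosome 3 were Or13a and CG32793 on X, frtz on 2L, and Or43a and Or47a on 2R, so 3 of the 5 were odorant receptors. At an unadjusted p under 0.05 the shares were 4.5% on X, 5.25% on 2L, 5.28% on 2R, 10.1% on 3L and 11.2% on 3R.

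Along 3R the calls lay distal to rn and were unevenly spread. Within 3 Mb on the telomeric side there were 6 called genes among 336, CG15864 and CG31464 about 1 Mb away and GstZ1, mura, CG8319 and Unc-115b between 2.16 and 2.40 Mb away. Another 6 of 250 genes lay 12 to 15 Mb from rn, among them the neighbours Calx and CG5697 and the overlapping pair CG34138 and subdued. On the centromeric side of rn none of 307 genes was called, and 21 (6.84%) had an unadjusted p under 0.05. On the telomeric side, the stretches at 3 to 6, 6 to 9 and 9 to 12 Mb held 4 of 305, 1 of 292 and 1 of 259. None of 397 genes at 15 to 18 Mb was called either, and 41 (10.3%) had an unadjusted p under 0.05. There was 1 call among 230 genes at 18 to 21 Mb and 1 among 308 at 21 to 26 Mb. The farthest called gene was Map205, 24.77 Mb from rn. Or67c and Or67d lie 28.5 kb apart on 3L.

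**Figure D5:**
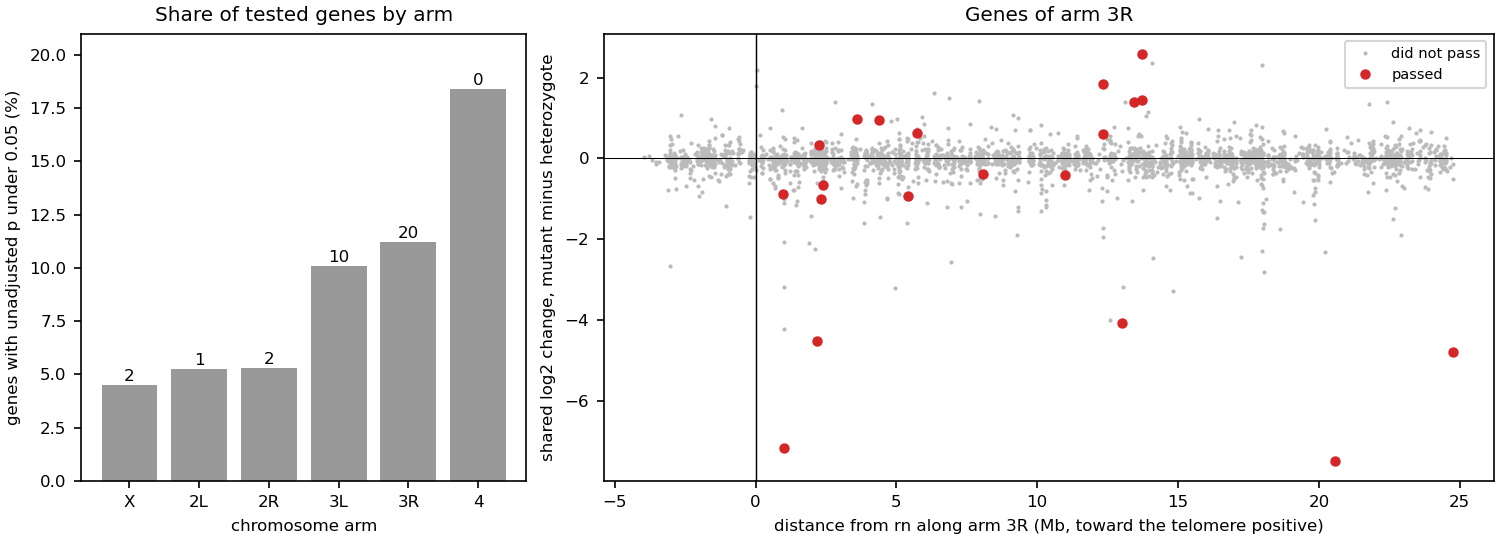
Left, share of tested genes with an unadjusted p under 0.05 by chromosome arm (bars, percent), with the number of called genes above each bar. Right, the shared log2 change of every tested gene of arm 3R against its distance from rn in Mb (grey, not called; red, called); the 20 called genes start 0.96 Mb from rn and reach 24.77 Mb, and none lies on the centromeric side.

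The wild type, a separate group outside the fit, took no single position over the 35 genes. On the mean over stages of log2(CPM + 0.1), it was nearer the mutant in 13 genes and nearer the heterozygote in 22. Over all tested genes it was nearer the mutant in 41.1%, a similar share, so this division is not particular to the called genes. The 13 were 9 of the lower genes (PolQ, RhoGAP68F, CG8319, CG15864, Vps39, Hibch, CG4362, CG31464 and frtz) and 4 of the higher ones (pst, CG14715, mura and Ir75a). In 12 of these the heterozygote stood farther from the mutant than the wild type did, and in frtz the wild type lay farther, below both. Wherever the wild type lay between the other genotypes, this order follows from how the 13 were picked. Only PolQ, pst and frtz, with the wild type beyond the mutant, were free to differ. The wild type lay between the other genotypes in 16 genes and outside their range in 19. For 10 of the 16 higher genes it lay beyond the heterozygote, so that the mutant differed more from the wild type than from the heterozygote. The shares of all tested genes with the wild type between, outside or beyond were not counted. These positions therefore cannot be called a trait of the 35. No test was made of these positions.

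The genes behind visible balancer markers gave no shared call. Of the list e, Ubx, Antp, ss, Tb and Sb, 3 passed the filter: e, the ebony gene of cuticle pigmentation (1.15 ± 0.48, adjusted p = 0.593), Sb, the protease gene Stubble (-0.36 ± 0.14, adjusted p = 0.515), and ss, the transcription factor spineless (-0.16 ± 0.09, adjusted p = 0.748). Before adjustment, e and Sb had p under 0.05 in the same edgeR test (0.0297 and 0.0184), against 7.67% of all genes. Ubx, Antp and Tb were below 0.7 CPM in every library. Adult e had 6.67 and 7.57 CPM in heterozygotes and 52.4 and 11.2 CPM in mutants, a spread between mutant replicates larger than the gap between the group means.

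The effect of genotype differed between stages for 9 genes (0.0839%), with 558 (5.2%) at an unadjusted p under 0.05. Or47a and CG34138 were among these and also among the 35 genes with a shared effect. This count hung on single libraries more than the shared one: it was 1633 without heterozygote larval library 2 and 29 without heterozygote library 2 at 8 h. It was 3 and 2 without mutant larval libraries 1 and 2, and 3 without either mutant library at 8 h, heterozygote library 1 at 40 h or either mutant library at 40 h. It was 1 without either adult heterozygote library and 2 without mutant adult library 1.

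Most of the other gene groups of the disc and antenna held no shared call. Of 26 proximodistal patterning factors, 18 proneural and Notch genes, 14 factors of olfactory neuron fate, 34 axon guidance genes and 31 dpr and DIP cell-surface genes, none passed with edgeR, and their medians were 0.06, -0.07, -0.05, -0.03 and 0.12. At an unadjusted p under 0.05 these lists had 3, 2, 1, 1 and 0 genes, against 7.67% of all tested genes. All of these were lower except 1 of the 2 proneural and Notch genes. The 3 patterning factors were bab1 (-0.34 ± 0.15), bab2 (-0.21 ± 0.07) and bowl (-0.15 ± 0.07), and 4.89% of all genes were lower. The odorant-binding and support-cell genes also gave no call, but 12 of 23 were lower at an unadjusted p under 0.05, against 4.89% of all genes, and their median was -0.48. The values nearest to a call were Jhedup (-0.61 ± 0.14) and Obp19a (-0.97 ± 0.22), both with an adjusted p of 0.0877. Antimicrobial peptide and recognition genes had 13 of 13 tested members below 0 and a median of -0.80, against a median of -0.02 over all tested genes. Of the 13, 1 was lower at an unadjusted p under 0.05, against 4.89% of all genes.

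Markers of other cell types were checked over the same libraries. The adult libraries held the antennal genes Orco and lush at 1510 CPM or more and 1300 CPM or more in every one of the 4 adult libraries compared, and the summed level of 10 pan-neuronal markers was 4370 to 4820 CPM there. Of 11 hemocyte markers none passed, 4 were higher at an unadjusted p under 0.05, against 2.78% of all genes, and the median was 0.53. Their summed level was 148 and 126 CPM in heterozygous and 465 and 285 CPM in mutant larvae, and 568 and 563 against 951 and 588 CPM in the adult. The eye list had 13 of 14 members below 0 and a median of -0.76, against a median of -0.02 over all tested genes. At an unadjusted p under 0.05, 2 of the 14 were lower, ninaE (-4.0 ± 1.45) and norpA (-0.26 ± 0.08), against 4.89% of all genes. Eye sums were 329 and 229 against 201 and 182 CPM in the larva and 81.9 and 262 against 83.6 and 76.0 CPM in the adult. Fat body markers summed to 61.5 to 263 CPM over the 16 libraries (median change 0.09), and muscle markers to 651 to 2350 CPM (median 0.04). Mutant adult library 1 stood apart in these sums: muscle markers were at 1750 CPM against 749 to 789 CPM in the other 3 adult libraries, sex-biased genes at 890 against 287 to 386 CPM, and fat body markers at 184 against 72.9 to 96.4 CPM. It is also the adult mutant library with the higher e. Glial, testis and sex-biased lists had medians of 0.04, -0.10 and 0.25, heat shock genes -0.09, mitochondrial genes 0.10 and leg and homeotic genes 0.19, each without a call, while the 5 chemosensory coreceptors had -0.33 and no call. None of these lists was at 0 as a whole, 1 testis marker had no count in the 16 libraries, and the part of other cell types in the results was not tested.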

How the data were processed

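Polyadenylated RNA of 24 libraries was measured; 16 entered the fit. RNA was purified on RNeasy columns and turned into stranded mRNA libraries for Illumina instruments, per the labels' protocols. Per the submitters' processing notes, CASAVA 1.8, BWA 0.7.12 and DESeq2 were used. Not given in the sources used here are the genome build, the counting program and its strand setting. The authors deposited read counts for 29872 transcripts and a normalized signal that equals the deposited counts times 1 constant per library, so the counts were used. Of the transcripts, 29393 matched 13409 genes of the Ensembl BDGP6 annotation (98.69% of counts), and 479 were left out. A gene was represented by whichever of its transcripts had the largest summed count, since transcripts share reads. Of the counts from 1 to 6, 80.6% were even, as when both mates of a pair are counted, so counting intervals are too narrow. Transcript totals ran from 20029995 to 33353768 per library.

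The test used edgeR 4.0.16 under R 4.3.3: TMM, filterByExpr with a minimum count of 10, the quasi-likelihood F test of genotype with stage as an additive term (11 residual degrees of freedom), and the interaction of stage and genotype (8). The common dispersion was 0.0397 (a coefficient of variation of 19.9%). SE is the absolute log2 change divided by the root of F, and log CPM used a prior count of 2. Ratios of counts carry exact 95% intervals. The scripts were tested on simulated data. Alternatives used limma 3.58.1, DESeq2 1.42.0, another scaling, no filter, sums over transcripts, a replicate block, left-out libraries and stages, the mean of within-stage contrasts and all 24 libraries.

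Named genes were rn, up to 12 higher and 12 lower genes that passed with the same sign at 4 stages and 5 CPM or more in the higher genotype, up to 5 in each direction without the same sign, the 5 smallest interaction p-values, passing list members and balancer marker genes. The other called genes are named to account for all 35. The comparison and lists were chosen with earlier results of these data known.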

Additional observations from a re-analysis of the deposited data

Results flagged for a closer look

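For 9 genes the test of the interaction of stage and genotype found that the change from heterozygote to mutant differed between the 4 stages, and the adjusted p-values below are edgeR's for that test.

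CHKov1 (adjusted p = 0.000307), on 3R, was lower in mutants before the adult and not in it. Larval heterozygotes had 69.0 and 37.8 CPM and larval mutants 4.89 and 4.40 CPM. At 40 h the pairs were 28.4 and 38.1 CPM and 0.386 and 0.577 CPM. In the adult the values were 93.0 and 94.4 against 147 and 130 CPM, so the log2 change went from -6.08 ± 0.41 at 40 h to 0.56 ± 0.25.

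MFS3 (adjusted p = 0.00272), on 2L, was higher in adult mutants, with 65.3 and 32.9 CPM against 1.94 and 2.40 CPM in adult heterozygotes (log2 change 4.49 ± 0.34). The higher value is that of mutant adult library 1, whose muscle marker sum was 1750 CPM against 749 CPM in library 2, and its part in the result was not tested. At 8 h it stood at 44.6 and 45.4 against 41.2 and 50.2 CPM.

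The receptors Or67a (adjusted p = 0.0134) and Or47a (adjusted p = 0.0382) differed between genotypes mainly in the adult. Or67a had 61.7 and 58.6 CPM in adult heterozygotes and 0.307 and 0.315 CPM in adult mutants, while every earlier library of the 2 genotypes was at or below 1.07 CPM.

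CG34353 (adjusted p = 0.0382), Mipp1 (adjusted p = 0.0382) and sNPF (adjusted p = 0.0479) were lower in mutant larvae. Mipp1 had 7.35 and 11.9 CPM in heterozygous and 0.890 and 0.592 CPM in mutant larvae (log2 change -3.67 ± 0.36), with 0.663 and 0.667 CPM in wild type larvae. sNPF, a neuropeptide precursor, had 7.35 and 4.28 against 1.04 and 0.677 CPM there, and CG34353 had 2.24 and 3.48 against 0.371 and 0.423 CPM.

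CG9008 (adjusted p = 0.0459) was lower in mutants at 8 h, with 15.9 and 20.3 against 4.05 and 4.43 CPM, and stood at 16.6 and 16.3 against 16.7 and 15 CPM at 40 h. CG34138 (adjusted p = 0.0432) was higher in mutants at every stage, by 0.96 ± 0.22 in the larva and 3.39 ± 0.24 in the adult.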

How the results depend on the processing

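The fit described above gave 35 genes with a shared effect and 9 whose effect differed between stages. Leaving out each of the 16 libraries in turn gave 16 to 77 and 1 to 1633 genes. With a replicate block, pairing libraries of the same number within a stage, the counts were 16, all among the 35, and 1. The correlations of paired deviations were 4.27e-05, -0.2, 0.111 and 0.0694 from larva to adult. Each rests on 1 difference between libraries per genotype, so it cannot show whether libraries of the same number share anything else. The shared count was 22 without the 8 h stage, 17 without the adult, 53 for the mean of within-stage contrasts (25 of the 35 included), 22 with all 24 libraries, 119 with limma-voom (all 35 included) and 104 with DESeq2 (31 of the 35), which gave 121 interaction genes. Other scaling, no filter and sums over transcripts gave 39, 35 and 34 genes, and 8, 9 and 8 for the interaction. Map205, GstZ1, PolQ, CG14715, pst and CG5697 passed in all 28 alternatives, 22 genes passed in at least 20, and none of the 35 reversed. The sNPF shared change (-0.11) ran from -0.21 to 0.14 over the left-out libraries, positive without any of 3 larval ones, and reversed to 0.35 without the larva and to 0.23 with limma-voom. The cause of these changes was not tested.

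Depth limits the receptors before the adult stage, where most are at or near 0 in both genotypes.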
